A study of Mus musculus with 41 samples.

Results

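The comparison described here sets melanomas taken 3 days after doxycycline withdrawal against melanomas taken while the animals still received the drug. Its 10 tumours, 6 labelled 3 days off doxycycline and 4 labelled 0 days, were chosen by that label alone and belong to a series of 41. All came from mice of the iBIP strain, a doxycycline-inducible melanoma model driven by BRAF. The groups are labelled by the number of days since doxycycline was taken out of the drinking water. The labels do not spell out the alleles of the strain, the promoter of the transgene, or the age or sex of the animals. Skin was trimmed off each tumour and a small piece of what remained was homogenised whole, so each value is an average over melanoma cells and every other cell in the piece. In such bulk RNA, fewer cells of a type and less of a transcript per cell cannot be told apart. The labels do not say whether any tumours share a mouse. Sample titles number the day 0 tumours outside the range of the day 3 tumours, and what these numbers stand for is not stated. Day and number range cannot be told apart here. The p-values measure the spread between tumours within the day groups of all 41, and not within these 10 alone. RNA was measured on Affymetrix mouse genome arrays, which gave 14319 genes above a filter on low values. Values below are log2 intensities, differences are day 3 minus day 0 on that scale with their standard error (SE), and a gene was called at a limma adjusted p under 0.05. Tumours are numbered within a group in the order of deposit.

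BRAF is a kinase that activates MEK, which activates ERK, and ERK switches on genes for growth and division together with genes that restrain the pathway itself, such as the Sprouty proteins and the dual-specificity phosphatases. Blocking this pathway in melanoma is known to lower those feedback genes within hours, to slow division, to shift the cells towards more differentiated neural crest states and to change antigen presentation and the immune cells of the tumour. Interferons act through STAT and IRF factors on antiviral genes, on guanylate-binding proteins and on the MHC class I machinery that shows peptides to T cells.

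Of the 14319 genes, 1395 were higher at day 3 (9.74%) and 1662 were lower (11.6%), which together is 21.3% of the genes; an unadjusted p under 0.05 was found in 34%. In 1126 genes all 6 day 3 tumours lay above all 4 day 0 tumours (7.86%), and in 1499 they all lay below (10.5%). The median difference over all genes was -0.02. Arrays of the same group correlated at 0.949 to 0.975 (day 0) and 0.935 to 0.980 (day 3), and arrays of different groups at 0.884 to 0.966. The bioD and dap spike-in control probe sets separate the 41 arrays into 3 sets, 1 low in bioD and the others low or high in dap. All 6 day 3 arrays lie in one and all 4 day 0 arrays in another, and the sets are linked only through tumours of day 1 and of the late days. With this set as a block in the fit, 85 genes were higher and 49 lower. With the boundary between the sets low and high in dap placed at the widest gap of the dap values, a choice made after the data had been seen, the block left 164 higher and 51 lower, and the 167 genes shared with the fit without a block all had the same direction. Of the 160 called genes named below, 9 were still called under the first of these blocks, which is the one quoted below, and 151 had the same sign. Under it the difference was smaller by over 1.5 times or of the other sign in 48 of the 160, and larger by over 1.5 times in 21. Block values are printed below for some of these genes only. When a gene's probe sets were averaged instead of taking the brightest, 6 of the 160 lost their call and the difference was smaller by over 1.5 times in 29. The Gapdh control signal at the 3' end minus that at the 5' end, a measure of RNA integrity, was 0.454 ± 0.125 (SD, n = 4) at day 0 and 0.04 ± 0.216 (SD, n = 6) at day 3. With this Gapdh difference as a covariate in the fit, 1659 genes were higher and 1803 lower. Of these, 2943 were also called without it, all in the same direction. The part of spike-in set or RNA integrity in the results was not tested beyond these fits. Without day 0 tumour 4, the only day 0 tumour with Y-linked Eif2s3y at 8.88 where the other 3 stood near background, 782 genes were higher and 851 lower. At day 3, 4 of the 6 tumours had Eif2s3y between 9.25 and 9.77.

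**Figure D1:**
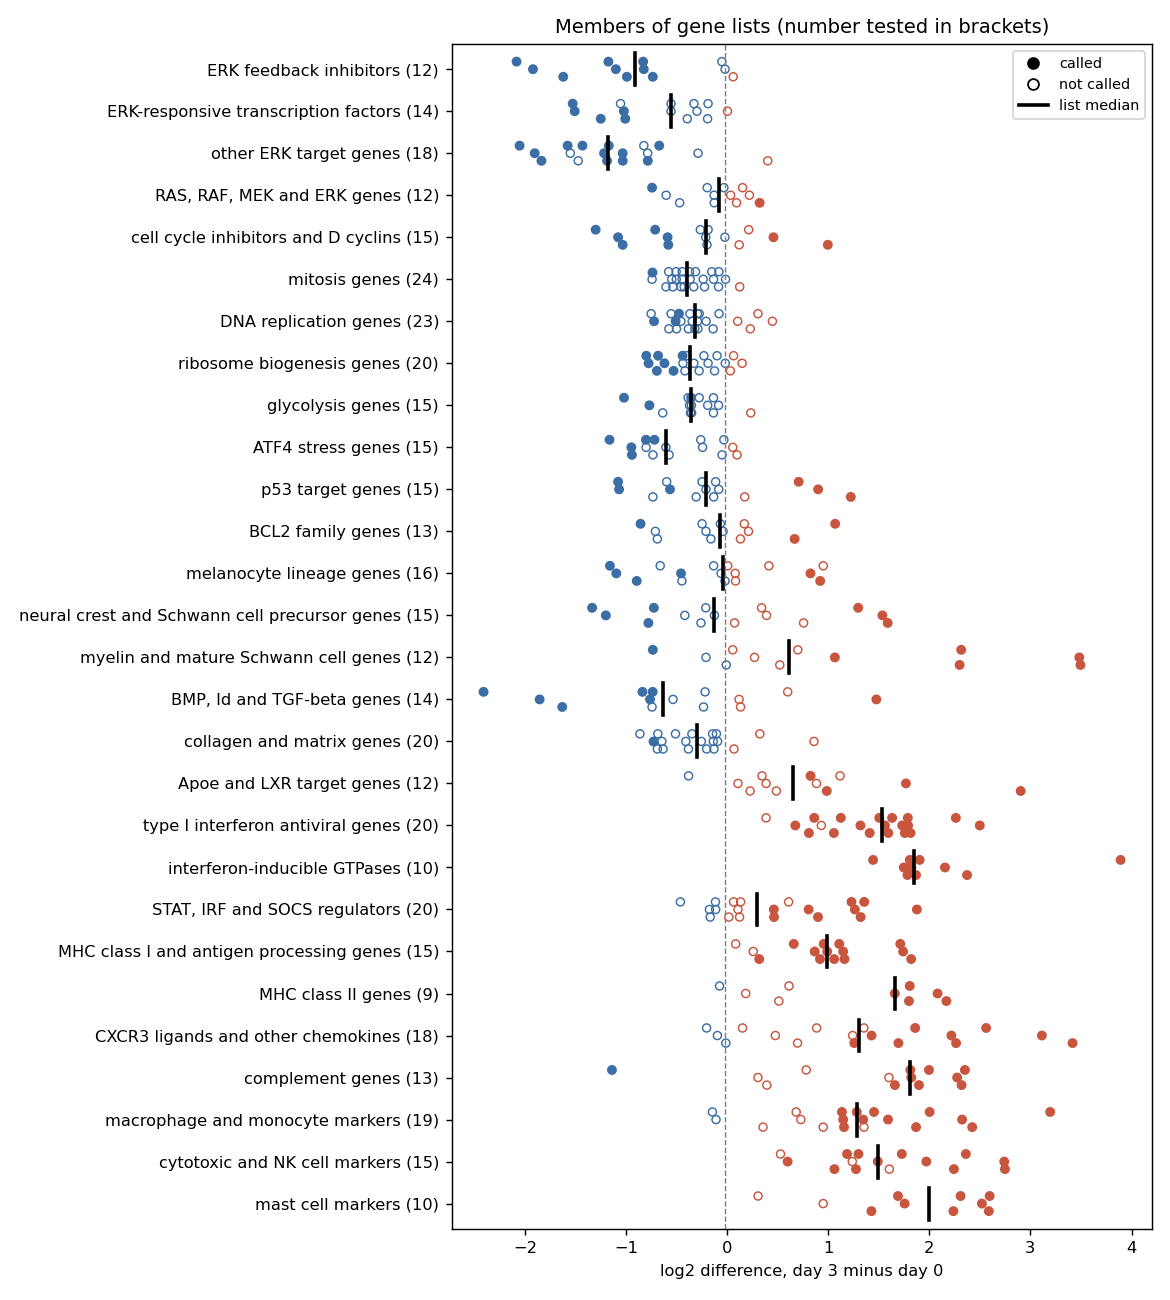
Log2 difference of day 3 minus day 0 (horizontal axis) for every tested member of 28 gene lists (rows). Points are genes, blue below 0 and red above it, filled where limma called them (adjusted p under 0.05) and open where not, bars are list medians and the dashed line is the median of all genes, -0.02. The ERK lists lie left of it, with medians of -0.91, -0.56 and -1.18, and the interferon, complement and mast cell lists lie right of it, with medians of 1.53, 1.85, 1.81 and 2.00.

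The lowest p-values among falling genes belonged to Spred3, a Sprouty-related inhibitor of RAS to ERK signalling, and to Cd276, which encodes the cell-surface protein B7-H3. Spred3 stood at 8.51, 7.45, 7.59 and 8.61 in day 0 tumours 1 to 4 and ran from 5.87 to 6.32 (median 6.16) in the day 3 tumours. The groups did not overlap, and Spred3 fell by 1.92 ± 0.20 (SE), a 3.79-fold difference on this scale (adjusted p = 6.92e-07). Cd276 stood at 8.53, 8.61, 9.01 and 9.37 in day 0 tumours 1 to 4 and ran from 7.32 to 7.88 (median 7.53) in the day 3 tumours. It was lower in every day 3 tumour, with a difference of -1.32 ± 0.14 (SE, adjusted p = 6.92e-07). Socs2, a suppressor of cytokine and growth hormone receptor signalling, differed by -1.25 ± 0.17 (SE, adjusted p = 8.87e-06), and the actin-associated LIM protein gene Pdlim7 by -1.11 ± 0.15 (SE, adjusted p = 1.15e-05). Cdr2l and Gprc5a, an orphan receptor gene induced by retinoic acid, completed the lowest p-values, at -1.07 ± 0.14 and -0.82 ± 0.11. In each of these 6 genes all day 3 values lay below all day 0 values.

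The lowest p-values among rising genes belonged to genes of innate immune sensing, lipid transport, redox control and selenium transport. Tlr7, the endosomal receptor for single-stranded RNA, stood at 6.27, 7.36, 5.96 and 5.63 in day 0 tumours 1 to 4 and ran from 8.40 to 9.20 (median 8.48) in the day 3 tumours, and the groups did not overlap. Its difference was 2.31 ± 0.27 (SE, adjusted p = 1.12e-06). Tifa, an adaptor of NF-kappaB signalling, differed by 1.30 ± 0.15 (SE, adjusted p = 1.12e-06) and Ifngr1, a chain of the interferon gamma receptor, by 1.26 ± 0.16 (SE, adjusted p = 2.69e-06). Txnip, a thioredoxin-binding protein that limits glucose uptake, stood at 9.67, 9.75, 9.11 and 9.41 in day 0 tumours 1 to 4 and ran from 11.02 to 11.68 (median 11.48) in the day 3 tumours. It rose by 1.92 ± 0.23 (SE), or 3.79-fold (adjusted p = 1.86e-06), and was still called under the spike-in block, at 2.47 (adjusted p = 0.0226). Selenop, the secreted selenium carrier, rose by 1.53 ± 0.19 and kept its call under the block as well, at 1.79 (adjusted p = 0.0442).

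The largest falls named here were in neurofilament, hormone and ion transport genes, and not all of the 12 largest are named. A member of the BMP, Id and TGF-beta list that is not named stood at -2.41. Nefl, the light subunit of neurofilaments, stood at 12.02, 8.66, 9.14 and 11.11 in day 0 tumours 1 to 4 and ran from 6.09 to 7.17 (median 6.76) in the day 3 tumours. All day 3 values were lower, near 6.76, although the day 0 tumours themselves were spread over several log2 units, and the difference was -3.57 ± 0.86 (SE, adjusted p = 0.00343). The medium subunit Nefm differed by -2.51 ± 0.55 (SE, adjusted p = 0.00152), again with no overlap. These were the only 2 of 8 tested neuronal and neurofilament genes that were called. Prl8a9, a prolactin-family gene, stood at 12.11, 7.48, 6.51 and 10.33 in day 0 tumours 1 to 4 and ran from 4.67 to 6.78 (median 6.12) in the day 3 tumours. Its groups overlapped, and the difference was -3.23 ± 0.93 (SE, adjusted p = 0.0124). Nppb, which encodes a natriuretic peptide, differed by -2.51 ± 0.75 (SE, adjusted p = 0.0161), and Prkg2, a cGMP-dependent kinase, by -2.23 ± 0.50 (SE, adjusted p = 0.00177). Slc9a2, a sodium/hydrogen exchanger, and Slc14a1, a urea transporter, fell by 2.30 ± 0.37 and 2.20 ± 0.42, each with no overlap between the groups. Prkg2 was -0.53 (adjusted p = 0.858) under the spike-in block. The call of Prl8a9 was lost in 2 of the 10 fits that leave out a tumour (highest adjusted p = 0.103). The call of Nppb was lost in 2 of the 10 fits that leave out a tumour (highest adjusted p = 0.0963).

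The largest rises joined a keratin, Schwann cell genes and immune genes. Krt10, a keratin of differentiating epidermis, stood at 6.57, 6.71, 10.89 and 6.89 in day 0 tumours 1 to 4 and ran from 10.32 to 13.67 (median 11.64) in the day 3 tumours, so day 0 tumour 3 alone of its group lay inside the day 3 range. Its difference was 4.14 ± 1.31 (SE, adjusted p = 0.0228). The call of Krt10 was lost in 4 of the 10 fits that leave out a tumour (highest adjusted p = 0.0799). It was the only 1 of 19 tested keratinocyte and hair follicle markers that was called (3 without day 0 tumour 3), and under the spike-in block its sign turned, to -2.07. The mean level of those 19 markers ran from 6.56 to 8.42 at day 0 and from 7.75 to 10.4 at day 3, so these levels varied within both groups. AW112010, a transcript induced in activated immune cells, stood at 7.80, 9.31, 5.90 and 8.10 in day 0 tumours 1 to 4 and ran from 10.52 to 11.69 (median 11.26) in the day 3 tumours. It differed by 3.42 ± 0.58 (SE, adjusted p = 0.000138) and had no overlap. Calhm6, an ion channel gene of interferon-treated macrophages, differed by 3.36 ± 0.52 (SE, adjusted p = 4.36e-05).

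The genes that ERK switches on to restrain itself were lower at day 3. Of 12 tested ERK feedback inhibitors, 9 fell, 0 rose and the median difference was -0.91, where 11.6% of all genes fell and their median was -0.02. In all 9 the 6 day 3 tumours lay below the 4 day 0 tumours. Dusp4, a nuclear phosphatase that inactivates ERK, stood at 10.47, 8.53, 9.20 and 9.63 in day 0 tumours 1 to 4 and ran from 6.43 to 8.45 (median 7.47) in the day 3 tumours. Day 0 tumours 1 and 4 were the highest of the 10, and the difference was -2.08 ± 0.41 (SE, adjusted p = 0.000599), or 4.24-fold. Dusp5, a second nuclear ERK phosphatase, stood at 9.62, 8.71, 8.71 and 9.68 in day 0 tumours 1 to 4 and ran from 7.14 to 8.05 (median 7.60) in the day 3 tumours. It differed by -1.62 ± 0.24 (SE, adjusted p = 2e-05). Dusp6, the cytoplasmic ERK phosphatase often used as a readout of the pathway, stood at 11.04, 10.97, 10.91 and 11.39 in day 0 tumours 1 to 4 and ran from 9.83 to 10.68 (median 10.24) in the day 3 tumours. Its difference of -0.82 ± 0.23 (SE, adjusted p = 0.00928), or 1.77-fold, was among the smaller of these 9. The call of Dusp6 was lost without day 0 tumour 4 (adjusted p = 0.0529). Spry2 differed by -1.17 ± 0.20 (SE, adjusted p = 0.000108) and Spry4 by -1.10 ± 0.20 (SE, adjusted p = 0.000235), both being Sprouty proteins that act between receptors and RAF. Spred1, Spred2 and Dusp7 were also lower, at -0.83 ± 0.18, -0.99 ± 0.20 and -0.74 ± 0.17. The remaining members, Dusp2, Dusp14 and Spry1, were not called and stood at 0.06, -0.02 and -0.05. With the spike-in block the median was -0.83 and 0 of the 12 were called (2 with the other boundary).

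**Figure D2:**
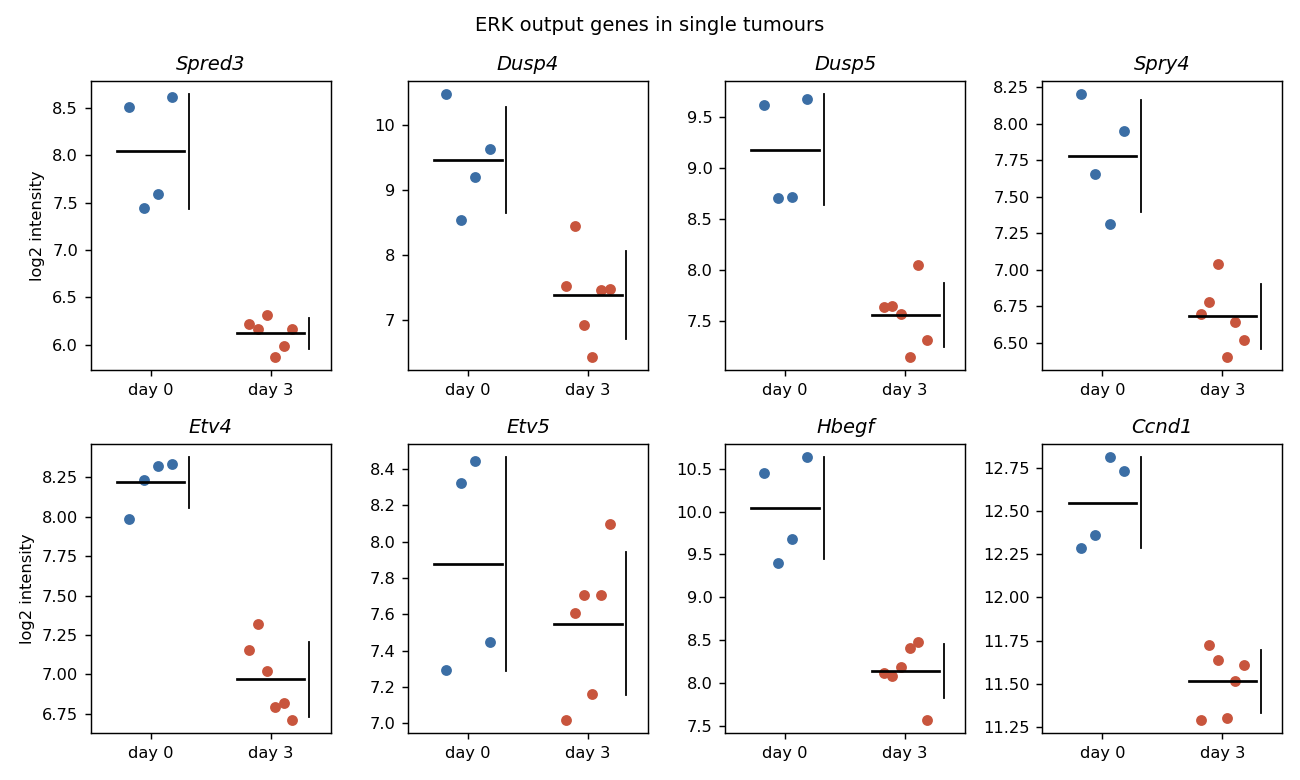
Log2 intensity (vertical axis) of 8 ERK pathway output genes in each of the 4 day 0 and 6 day 3 tumours, with the group mean as a bar and the standard deviation as a line. Spred3, Dusp4, Dusp5, Spry4, Etv4, Hbegf and Ccnd1 show no overlap between the groups, and Etv5 overlaps.

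ERK-responsive transcription factors fell in part. Of 14 tested, 5 fell and 0 rose, with a median of -0.56. These falls numbered 3 without day 0 tumour 1, day 0 tumour 4, day 3 tumour 2, day 3 tumour 3 or day 3 tumour 4. Etv4, an ETS factor activated downstream of ERK, stood at 7.99, 8.23, 8.32 and 8.33 in day 0 tumours 1 to 4 and ran from 6.71 to 7.32 (median 6.92) in the day 3 tumours. All day 3 values were lower, by 1.25 ± 0.17 (SE, adjusted p = 1.36e-05). Its relative Etv5 stood at 7.29, 8.32, 8.44 and 7.45 in day 0 tumours 1 to 4 and ran from 7.02 to 8.10 (median 7.66) in the day 3 tumours. Those ranges overlapped and Etv5 was not called, at -0.33 ± 0.26 (SE, adjusted p = 0.39). Fosl1, the AP-1 subunit FRA1, differed by -1.51 ± 0.32 (SE, adjusted p = 0.0013) and the immediate early factor Egr1 by -1.53 ± 0.34 (SE, adjusted p = 0.00187), both without overlap. Ier3, a stress-induced survival gene, differed by -1.02 ± 0.35 (SE, adjusted p = 0.0338). The call of Ier3 was lost in 5 of the 10 fits that leave out a tumour (highest adjusted p = 0.217). Myc stood at -0.55 ± 0.29 and was not called (adjusted p = 0.175).

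Secreted growth factors and other ERK targets fell more broadly, 12 of 18 tested, with 0 rising and a median of -1.18. Hbegf, an EGF receptor ligand, stood at 10.45, 9.40, 9.68 and 10.64 in day 0 tumours 1 to 4 and ran from 7.57 to 8.47 (median 8.15) in the day 3 tumours. Every day 3 tumour was lower, and the 3.74-fold difference was -1.90 ± 0.35 (SE, adjusted p = 0.000287). Pdgfa, the platelet-derived growth factor A chain, differed by -1.03 ± 0.19 (SE, adjusted p = 0.000287). Il11 and Ereg, an interleukin 6 family cytokine and another EGF receptor ligand, differed by -2.05 ± 0.45 (SE, adjusted p = 0.00159) and -1.84 ± 0.48 (SE, adjusted p = 0.00642), with overlapping groups. Phlda1, a pleckstrin-homology protein induced by growth factors, stood at 11.07, 10.04, 9.88 and 10.37 in day 0 tumours 1 to 4 and ran from 8.06 to 10.11 (median 8.55) in the day 3 tumours. Its groups overlapped at their edges, and the difference was -1.58 ± 0.30 (SE, adjusted p = 0.000397). Slc20a1, a phosphate transporter, differed by -1.43 ± 0.25 (SE, adjusted p = 0.000201). Ccnd1, cyclin D1, which links ERK to the start of the cell cycle, stood at 12.28, 12.36, 12.81 and 12.73 in day 0 tumours 1 to 4 and ran from 11.29 to 11.73 (median 11.56) in the day 3 tumours. Its 2.05-fold fall was 1.03 ± 0.26 (SE, adjusted p = 0.00458). Under the spike-in block the list median was -0.83 and 0 members were called, with Ccnd1 at -0.55 (adjusted p = 0.715).

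The kinases of the pathway itself mostly did not pass the test. Of 12 tested RAS, RAF, MEK and ERK genes, 1 rose, 1 fell (2 without day 0 tumour 2) and the median was -0.08. The called genes are 16.7% of the list, against 21.3% of all genes. Braf stood at 8.56, 8.41, 8.46 and 8.37 in day 0 tumours 1 to 4 and ran from 8.51 to 8.92 (median 8.84) in the day 3 tumours. These ranges overlapped and the rise was small, at 0.32 ± 0.11 (SE, adjusted p = 0.0348). The call of Braf was lost in 7 of the 10 fits that leave out a tumour (highest adjusted p = 0.109). Averaging its probe sets also left Braf uncalled, at 0.04 (adjusted p = 0.786). The labels do not say whether this probe set reads the transgene, so it gives no check of the switch. Map2k2, which encodes MEK2, stood at 10.03, 10.08, 10.05 and 10.17 in day 0 tumours 1 to 4 and ran from 9.09 to 9.63 (median 9.33) in the day 3 tumours. All day 3 values were lower, by 0.74 ± 0.18 (SE, adjusted p = 0.00294). Braf and Map2k2 both changed sign under the spike-in block, at -0.11 and 0.22.

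Among 22 tested receptor tyrosine kinases and their ligands, 3 rose and 2 fell, with a median of 0.16; these are 22.7% of the list, near the 21.3% of all genes. The rises numbered 1 without day 0 tumour 4. The falls numbered 0 to 1 in each fit that leaves out a tumour. The rises held a receptor and its ligand. Mertk, a receptor by which macrophages take up dying cells, stood at 7.95, 8.04, 7.24 and 7.17 in day 0 tumours 1 to 4 and ran from 8.47 to 9.24 (median 8.85) in the day 3 tumours. Gas6, which bridges dying cells to Mertk, stood at 7.95, 8.44, 8.47 and 7.01 in day 0 tumours 1 to 4 and ran from 8.92 to 9.79 (median 9.43) in the day 3 tumours. Neither gene overlapped between the groups, and the differences were 1.23 ± 0.27 (SE, adjusted p = 0.00156) and 1.38 ± 0.41 (SE, adjusted p = 0.015). The call of Gas6 was lost without day 0 tumour 4 (adjusted p = 0.104). Pdgfrb, the PDGF receptor of pericytes and fibroblasts, differed by -0.76 ± 0.27 (SE, adjusted p = 0.0385). The call of Pdgfrb was lost in 7 of the 10 fits that leave out a tumour (highest adjusted p = 0.116). Its sign turned under the spike-in block, to 0.22.

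Genes of cell cycle entry moved both ways, and most genes of division were not called. Of 15 tested D cyclins, their kinases and cell cycle inhibitors, 6 fell and 2 rose. Rises on this list numbered 1 without day 0 tumour 4. Ccne1, cyclin E1, stood at 7.89, 7.91, 7.90 and 8.14 in day 0 tumours 1 to 4 and ran from 6.93 to 7.59 (median 7.24) in the day 3 tumours and differed by -0.71 ± 0.16 (SE, adjusted p = 0.00212). The inhibitor gene Cdkn2b, p15, stood at 9.21, 9.38, 9.69 and 9.36 in day 0 tumours 1 to 4 and ran from 7.68 to 8.58 (median 8.22) in the day 3 tumours, also without overlap. It differed by -1.30 ± 0.22 (SE, adjusted p = 0.00012), and the p53 and stress target Cdkn1a, p21, by -1.08 ± 0.31 (SE, adjusted p = 0.0129), so inhibitors were among the falling genes. Rbl2, the pocket protein p130 that represses E2F genes in resting cells, stood at 8.13, 7.82, 7.75 and 7.21 in day 0 tumours 1 to 4 and ran from 8.40 to 9.05 (median 8.78) in the day 3 tumours. It was higher in every day 3 tumour, by 1.00 ± 0.17 (SE, adjusted p = 0.000183).

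Of 24 tested mitosis genes, 1 fell (4.17%, against 11.6% of all genes) and 0 rose. Their median was -0.40, and 23 of the 24 differences were below 0. Plk1, a mitotic kinase, differed by -0.75 ± 0.27 (SE, adjusted p = 0.0471). The call of Plk1 was lost in 8 of the 10 fits that leave out a tumour (highest adjusted p = 0.126). Mki67, the proliferation marker Ki-67, stood at 9.62, 10.05, 10.48 and 10.60 in day 0 tumours 1 to 4 and ran from 9.85 to 10.16 (median 9.93) in the day 3 tumours. The groups overlapped fully and the gene was not called, at -0.22 ± 0.36 (SE, adjusted p = 0.697). Over the mitosis list the mean level per tumour was 7.91, 8.48, 8.82 and 8.78 in day 0 tumours 1 to 4 and 7.97 to 8.38 at day 3, so day 0 tumour 1 lay below every day 3 tumour and the other 3 above. Of 23 tested DNA replication genes, 3 fell (Mcm2, Fen1 and E2f1) and 0 rose, with a median of -0.32. These 3 are 13% of the list, near the 11.6% of all genes that fell. Replication genes that fell numbered 0 without day 0 tumour 4, and 1 without day 3 tumour 2. Mcm2, a subunit of the replicative helicase, differed by -0.72 ± 0.22 (SE, adjusted p = 0.0178). The call of Fen1 was lost in 3 of the 10 fits that leave out a tumour (highest adjusted p = 0.137). Averaging its probe sets also left Fen1 uncalled, at -0.22 (adjusted p = 0.3). The call of E2f1 was lost in 3 of the 10 fits that leave out a tumour (highest adjusted p = 0.0707). Mcm2 was -0.12 (adjusted p = 0.938) under the spike-in block. The call of Mcm2 was lost without day 0 tumour 4 (adjusted p = 0.0691). In the lists of cell cycle entry, mitosis and replication, 0 genes were called under the spike-in block. Their medians under it were -0.39, -0.98 and -0.29. With the day 0 and day 3 tumours fitted alone, 5 mitosis and 8 replication genes were called lower and 0 higher.

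Some growth and biosynthesis genes fell, in smaller steps. Of 20 tested ribosome biogenesis genes, 7 fell (35%, against 11.6% of all genes), 0 rose and the median was -0.36. Under the spike-in block 0 were called and the median turned to 0.08 (-0.26 with the other boundary). Ribosome biogenesis genes that fell numbered 2 without day 0 tumour 4. Nop2, a nucleolar RNA methyltransferase, stood at 8.52, 8.53, 8.20 and 8.57 in day 0 tumours 1 to 4 and ran from 7.51 to 7.86 (median 7.66) in the day 3 tumours and differed by -0.78 ± 0.18 (SE, adjusted p = 0.00226). Of 15 tested glycolysis genes, 3 fell (20%, against 11.6% of all genes) and 0 rose. Glycolysis genes that fell numbered 1 without day 0 tumour 1, day 0 tumour 3 or day 0 tumour 4. Hk1, hexokinase 1, stood at 10.68, 10.36, 10.58 and 10.78 in day 0 tumours 1 to 4 and ran from 9.47 to 9.69 (median 9.58) in the day 3 tumours, and all day 3 values were lower, by 1.02 ± 0.23 (SE, adjusted p = 0.00204). Vegfa, the angiogenic factor on the hypoxia list, differed by -0.89 ± 0.27 (SE, adjusted p = 0.0171). It was 1 of 2 that fell there among 15 (13.3%, against 11.6% of all genes). The call of Vegfa was lost in 2 of the 10 fits that leave out a tumour (highest adjusted p = 0.0727). Hypoxia genes that fell numbered 0 without day 0 tumour 1 or day 0 tumour 4, and 1 without day 0 tumour 3, day 3 tumour 3 or day 3 tumour 4. Nop2 and Hk1 turned sign under the spike-in block, at 0.19 and 0.05. Of 18 tested oxidative phosphorylation genes, 1 rose (5.56%, against 9.74% of all genes) and 0 fell. Of the 18 differences 16 were above 0, and the median was 0.18. Under the block that median was -0.11 (0.09 with the other boundary). The 1 rise was called in 1 of the 10 fits that leave out a tumour. Cholesterol synthesis showed 1 rise and 1 fall among 15 (13.3%, against 21.3% of all genes), with a median of 0.07.

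Genes induced by ATF4, the factor of the amino acid response, fell in 5 of 15 tested cases, with 0 rising and a median of -0.61. Aars, an alanyl-tRNA synthetase, stood at 11.01, 10.47, 10.37 and 10.70 in day 0 tumours 1 to 4 and ran from 9.55 to 9.95 (median 9.67) in the day 3 tumours. No day 3 value reached a day 0 value, and the difference was -0.95 ± 0.17 (SE, adjusted p = 0.000212). It was -0.02 (adjusted p = 0.983) under the spike-in block. Mthfd2, of mitochondrial folate metabolism, stood at 9.37, 9.00, 8.91 and 9.59 in day 0 tumours 1 to 4 and ran from 8.08 to 8.47 (median 8.27) in the day 3 tumours. It differed by -0.94 ± 0.19 (SE, adjusted p = 0.000599), and the glutathione-degrading enzyme Chac1 by -0.72 ± 0.15 (SE, adjusted p = 0.0011). Asns, asparagine synthetase, differed by -1.16 ± 0.27 (SE, adjusted p = 0.00242).

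The p53 targets moved both ways. Of 15 tested p53 targets, 3 rose and 3 fell, together 40%, against 21.3% of all genes. Sesn1, a sestrin that restrains mTORC1, stood at 8.57, 8.95, 8.82 and 8.03 in day 0 tumours 1 to 4 and ran from 9.47 to 10.30 (median 9.80) in the day 3 tumours. It was higher in all day 3 tumours, by 1.22 ± 0.23 (SE, adjusted p = 0.000291). Trp53inp1 differed by 0.90 ± 0.20 (SE, adjusted p = 0.00156) and the death receptor gene Fas by 0.71 ± 0.15 (SE, adjusted p = 0.00108). In the BCL2 family 2 of 13 rose and 1 fell, together 23.1%, near the 21.3% of all genes, and the median of -0.07 was 0.39 (0.31 with the other boundary) under the spike-in block. Bmf, a pro-apoptotic BH3-only gene, stood at 6.80, 6.11, 6.06 and 6.26 in day 0 tumours 1 to 4 and ran from 6.93 to 7.76 (median 7.38) in the day 3 tumours. It did not overlap between groups and differed by 1.07 ± 0.29 (SE, adjusted p = 0.00857), and Bid, another BH3-only gene, differed by 0.67 ± 0.17 (SE, adjusted p = 0.00649). Bak1, a pore-forming effector, differed by -0.86 ± 0.30 (SE, adjusted p = 0.0367) but turned sign under the spike-in block, at 0.50. The call of Bak1 was lost in 6 of the 10 fits that leave out a tumour (highest adjusted p = 0.105). Averaging its probe sets also left Bak1 uncalled, at -0.39 (adjusted p = 0.107).

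Melanocyte genes did not move together. Of 16 tested, 2 rose, 4 fell and the median was -0.04. Melanocyte genes that fell numbered 1 without day 0 tumour 4, and 2 without day 0 tumour 1. Those that rose numbered 0 to 2 when a tumour was left out. The tumours carried Sox10, a neural crest and melanocyte factor, at 10.12, 9.85, 10.61 and 10.46 at day 0 and 9.04 to 10.41 (median 9.49) at day 3. It was not called, at -0.66 ± 0.29 (SE, adjusted p = 0.0996). The pigment enzymes Tyrp1 and Dct lay low throughout, Tyrp1 at 5.15, 5.03, 5.95 and 5.57 and then 5.07 to 5.97 (median 5.48), and Dct at 5.71, 5.67, 6.89 and 6.68 and then 5.35 to 6.05 (median 5.92), near the filter on low values, while Sox10 was well above it in all 10 tumours. Mitf, the master regulator of pigment cells, stood at 7.83, 8.06, 7.80 and 7.24 in day 0 tumours 1 to 4 and ran from 8.36 to 8.84 (median 8.54) in the day 3 tumours. The values did not overlap and the difference was 0.82 ± 0.30 (SE, adjusted p = 0.047). The call of Mitf was lost in 9 of the 10 fits that leave out a tumour (highest adjusted p = 0.191). Pax3, which acts upstream of Mitf, fell by 1.16 ± 0.38. The call of Pax3 was lost in 6 of the 10 fits that leave out a tumour (highest adjusted p = 0.0749). Tfap2a, another neural crest factor, fell by 0.89 ± 0.26 (SE, adjusted p = 0.0153). The call of Tfap2a was lost without day 0 tumour 4 (adjusted p = 0.0653).

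Among 15 tested neural crest and Schwann cell precursor genes 3 rose and 4 fell. Their rises numbered 1 without day 0 tumour 1. Their falls numbered 2 without day 0 tumour 1. Nes, the progenitor filament nestin, stood at 10.57, 9.96, 10.65 and 10.93 in day 0 tumours 1 to 4 and ran from 8.88 to 9.55 (median 9.23) in the day 3 tumours. It was lower in every day 3 tumour, with a difference of -1.34 ± 0.23 (SE, adjusted p = 0.000149). Cdh19, a cadherin of Schwann cell precursors, stood at 9.63, 9.77, 10.75 and 9.48 in day 0 tumours 1 to 4 and ran from 10.22 to 11.79 (median 11.39) in the day 3 tumours. It differed by 1.30 ± 0.34 (SE, adjusted p = 0.00626), and Gfra3, a GDNF-family receptor of that lineage, by 1.54 ± 0.46 (SE, adjusted p = 0.0164). The call of Gfra3 was lost without day 0 tumour 1 (adjusted p = 0.0532).

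Myelin and mature Schwann cell genes contained some of the largest rises. Of 12 tested, 5 rose and 1 fell, with a median of 0.61. Mal, a myelin and lymphocyte proteolipid, stood at 5.06, 5.83, 6.79 and 5.28 in day 0 tumours 1 to 4 and ran from 7.12 to 10.74 (median 9.28) in the day 3 tumours. Every day 3 tumour was higher, by 3.49 ± 0.60 (SE, adjusted p = 0.000149), which is 11.3-fold. Kcna1, a potassium channel of myelinated axons and Schwann cells, stood at 7.14, 7.94, 9.14 and 5.56 in day 0 tumours 1 to 4 and ran from 9.62 to 12.35 (median 10.94) in the day 3 tumours. It also showed no overlap and differed by 3.48 ± 0.63 (SE, adjusted p = 0.000235). Scn7a, a sodium channel gene of glia, differed by 2.31 ± 0.50 (SE, adjusted p = 0.00137), and Cnp, a myelin enzyme, by 1.07 ± 0.29 (SE, adjusted p = 0.00792). Cldn11, a tight junction gene of myelin that is on no list, stood at 4.83, 5.28, 5.68 and 4.72 in day 0 tumours 1 to 4 and ran from 6.77 to 9.15 (median 8.41) in the day 3 tumours and differed by 3.17 ± 0.57 (SE, adjusted p = 0.000215). Cldn11 was 1.51 (adjusted p = 0.615) under the spike-in block. Pmp22 and Mag, also myelin genes, were not called, at 0.52 and 0.06. Nerve fibres in the piece and tumour cells of this lineage both express such genes, and their shares were not tested.

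Interferon-induced genes held the highest shares of calls among the lists counted here. Of 20 tested type I interferon antiviral genes 18 rose and 0 fell, with a median of 1.53, against 9.74% of all genes rising. In none of the 20 did the groups separate fully. Day 0 tumour 2 carried these genes at day 3 levels, as the mean of the list was 7.43, 9.61, 7.72 and 7.36 in day 0 tumours 1 to 4 and 8.90 to 10.3 at day 3. Mx1, an antiviral GTPase, stood at 6.21, 9.09, 6.66 and 5.23 in day 0 tumours 1 to 4 and ran from 8.56 to 10.33 (median 9.35) in the day 3 tumours. Only day 0 tumour 2 reached the day 3 range, and the difference was 2.50 ± 0.54 (SE, adjusted p = 0.00131), or 5.65-fold. Xaf1 and Rtp4, both interferon-induced, differed by 1.59 ± 0.34 (SE, adjusted p = 0.00116) and 1.79 ± 0.38 (SE, adjusted p = 0.00131). When its probe sets were averaged, Xaf1 was not called, at 0.57 (adjusted p = 0.361). Ifit3, which binds foreign RNA with its relatives, stood at 7.85, 11.75, 9.90 and 8.20 in day 0 tumours 1 to 4 and ran from 11.18 to 11.96 (median 11.82) in the day 3 tumours and differed by 2.26 ± 0.55 (SE, adjusted p = 0.00369). Without day 0 tumour 2, 19 of the 20 were called and the median was 2.12. Without day 0 tumour 4, 9 were called, and 9 were called when the day 0 and day 3 tumours were fitted alone. With the spike-in block, 0 were called and the median was 1.41.

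**Figure D3:**
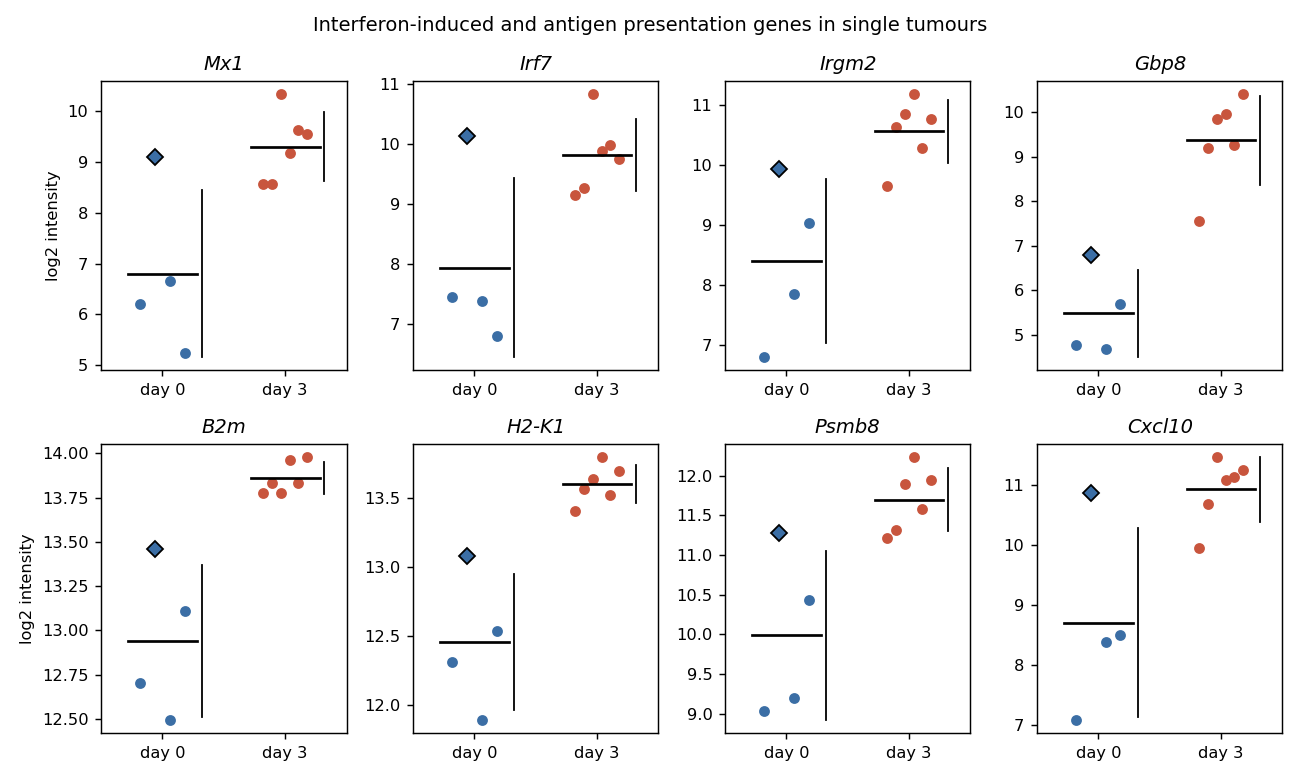
Log2 intensity (vertical axis) of 8 interferon-induced and antigen presentation genes in each day 0 and day 3 tumour, with group means as bars and standard deviations as lines; day 0 tumour 2 is drawn as a diamond. For Mx1, Irf7, Irgm2, Psmb8 and Cxcl10 the diamond lies inside the day 3 range, and for B2m, H2-K1 and Gbp8 it lies below all of them.

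All 10 tested interferon-inducible GTPases rose, with a median of 1.85. GTPase genes that rose numbered 8 without day 0 tumour 1. Gbp8, a guanylate-binding protein, stood at 4.76, 6.78, 4.69 and 5.69 in day 0 tumours 1 to 4 and ran from 7.56 to 10.41 (median 9.56) in the day 3 tumours. It was the only 1 of the 10 without overlap, and its 14.8-fold difference was 3.89 ± 0.82 (SE, adjusted p = 0.00114). Irgm2, which controls the immunity-related GTPases at membranes, stood at 6.81, 9.93, 7.86 and 9.04 in day 0 tumours 1 to 4 and ran from 9.66 to 11.19 (median 10.70) in the day 3 tumours. Day 0 tumour 2 again was highest within its group, and the difference was 2.15 ± 0.42 (SE, adjusted p = 0.000531). Gbp7 differed by 1.44 ± 0.27 (SE, adjusted p = 0.000305). The mean of the list was 7.55, 10.4, 8.31 and 9.66 in day 0 tumours 1 to 4 and 10.2 to 11.5 at day 3. Under the spike-in block the median was 3.07 and 0 of the 10 were called (3 with the other boundary).

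Among 20 tested STAT, IRF and SOCS regulators 9 rose and 0 fell. Regulators that rose numbered 6 without day 0 tumour 3. Stat2, a subunit of the factor that type I interferon activates, stood at 5.90, 7.34, 6.29 and 6.00 in day 0 tumours 1 to 4 and ran from 7.26 to 8.21 (median 7.63) in the day 3 tumours. It differed by 1.36 ± 0.24 (SE, adjusted p = 0.000164). Irf7, which amplifies the interferon response, stood at 7.44, 10.14, 7.38 and 6.80 in day 0 tumours 1 to 4 and ran from 9.15 to 10.84 (median 9.82) in the day 3 tumours, with day 0 tumour 2 inside the day 3 range. It differed by 1.88 ± 0.45 (SE, adjusted p = 0.00347), and Irf9 by 0.90 ± 0.16 (SE, adjusted p = 0.000238). Irf1 and Socs1, other interferon-induced regulators, were not called, at 0.61 and -0.12. The interferon gamma gene Ifng lay near background, at 4.72, 5.55, 4.71 and 5.08 at day 0 and 5.23 to 6.84 (median 6.32) at day 3. It differed by 1.19 ± 0.42 (SE, adjusted p = 0.0423). The call of Ifng was lost in 6 of the 10 fits that leave out a tumour (highest adjusted p = 0.113).

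MHC class I and antigen processing genes rose in 13 of 15 cases with 0 falling, and had a median of 0.99. Class I and processing genes that rose numbered 8 without day 0 tumour 1 or day 0 tumour 3. B2m, the light chain of every class I molecule, stood at 12.70, 13.46, 12.50 and 13.11 in day 0 tumours 1 to 4 and ran from 13.78 to 13.98 (median 13.83) in the day 3 tumours. The heavy chain gene H2-K1 stood at 12.31, 13.08, 11.89 and 12.54 in day 0 tumours 1 to 4 and ran from 13.40 to 13.80 (median 13.60) in the day 3 tumours. Neither overlapped between the groups, with differences of 0.92 ± 0.14 (SE, adjusted p = 2.75e-05) and 1.15 ± 0.18 (SE, adjusted p = 4.36e-05), and H2-K1 was still called under the spike-in block, at 1.67 (adjusted p = 0.0428). The same block called 1 member of the list lower, Pdia3, a disulfide isomerase of class I loading, at -1.18 (adjusted p = 0.0381), which without the block was not called, at 0.26. H2-D1 differed by 1.06 ± 0.16 (SE, adjusted p = 3.99e-05); class I heavy chain genes are close relatives, and signal shared between their probe sets was not tested. Psmb8, a catalytic subunit of the immunoproteasome, stood at 9.04, 11.27, 9.19 and 10.44 in day 0 tumours 1 to 4 and ran from 11.21 to 12.24 (median 11.74) in the day 3 tumours. It overlapped through day 0 tumour 2 and differed by 1.71 ± 0.36 (SE, adjusted p = 0.000983). The endoplasmic reticulum chaperone Calr was not called, at 0.08.

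The promoters of the 4 genes with the lowest p-values on the lists of type I interferon antiviral genes, interferon-inducible GTPases and class I genes are shown because such genes are known to be read through the interferon-stimulated response element. Each line holds the 150 bases before the annotated start on the strand of the gene, 5' to 3', from RefSeq on GRCm38.p6. Capitals mark the response element core, GAAA, any 2 bases and GAAA again, on either strand in B2m and Gbp7, and in H2-D1 and H2-K1 the 37 bases that these windows share.
B2m, chr2:122147537-122147686, plus strand: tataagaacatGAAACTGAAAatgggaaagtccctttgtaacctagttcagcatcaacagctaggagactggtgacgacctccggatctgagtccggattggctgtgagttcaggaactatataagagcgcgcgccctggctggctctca
Gbp7, chr3:142530186-142530335, plus strand: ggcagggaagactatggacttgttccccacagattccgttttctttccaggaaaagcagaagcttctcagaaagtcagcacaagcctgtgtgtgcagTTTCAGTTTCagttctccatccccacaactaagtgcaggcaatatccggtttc
H2-D1, chr17:35262944-35263093, plus strand: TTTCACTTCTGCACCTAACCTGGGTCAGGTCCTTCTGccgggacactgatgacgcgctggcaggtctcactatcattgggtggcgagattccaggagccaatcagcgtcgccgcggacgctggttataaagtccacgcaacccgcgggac
H2-K1, chr17:34000348-34000497, minus strand: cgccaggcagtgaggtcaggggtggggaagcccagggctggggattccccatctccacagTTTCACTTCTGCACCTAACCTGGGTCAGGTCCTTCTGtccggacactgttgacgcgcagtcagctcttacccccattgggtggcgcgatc
The core begins 139 bases before the start in B2m and 53 bases before it in Gbp7. No match to the core was found in the H2-D1 and H2-K1 windows, where the capitals mark shared sequence only. In windows from 250 bases before to 50 bases after the start, the core was found in 6 of 7 interferon-inducible GTPases with a promoter in the table (85.7%), in 8 of 15 type I interferon antiviral genes (53.3%) and in 3 of 13 class I and processing genes (23.1%), against 3.6% of the 11461 tested genes with a promoter. The STAT site TTCNNNGAA, which reads the same on both strands, was found in 3 of 7, 5 of 15 and 1 of 13 of them, against 8.1%. Matches overlapping between both motifs were counted for each. The ETS motif CCGGAAG, on either strand, was found in 0 of 10 ERK feedback inhibitors and in 17.5% of all genes. Of the mitosis genes, 16 of 20 held TTTGAA and 17 of 20 held CCAAT, on either strand, against 14.6% and 42% of all. These are matches of letters and not measured binding sites.

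MHC class II genes, which present peptides to CD4 T cells, rose in 5 of 9 cases with 0 falling and a median of 1.66. Class II genes that rose numbered 1 without day 0 tumour 3. H2-Aa stood at 12.15, 10.66, 9.87 and 11.41 in day 0 tumours 1 to 4 and ran from 12.72 to 13.59 (median 13.26) in the day 3 tumours. Day 0 tumour 3 was the lowest of all and the groups did not overlap, with a difference of 2.17 ± 0.63 (SE, adjusted p = 0.0142). H2-Ab1 differed by 2.08 ± 0.58 (SE, adjusted p = 0.0104). The call of H2-Aa was lost without day 0 tumour 3 (adjusted p = 0.0654). The call of H2-Ab1 was lost without day 0 tumour 3 (adjusted p = 0.0641). Ciita, the master regulator of these genes, was not called, at 0.18.

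Of 18 tested chemokines 9 rose and 0 fell, with a median of 1.31. Chemokines that rose numbered 6 without day 0 tumour 1. Cxcl9, a ligand of CXCR3 on activated T cells, stood at 5.87, 8.56, 6.45 and 9.52 in day 0 tumours 1 to 4 and ran from 8.76 to 11.47 (median 11.10) in the day 3 tumours. It overlapped and differed by 3.11 ± 0.87 (SE, adjusted p = 0.0105). The call of Cxcl9 was lost without day 0 tumour 1 (adjusted p = 0.0618). Cxcl10, another CXCR3 ligand, stood at 7.08, 10.85, 8.39 and 8.49 in day 0 tumours 1 to 4 and ran from 9.95 to 11.45 (median 11.11) in the day 3 tumours, with day 0 tumour 2 within the day 3 range, and differed by 2.22 ± 0.55 (SE, adjusted p = 0.00449). Ccl5, made by T cells and NK cells, stood at 6.80, 8.75, 6.51 and 7.21 in day 0 tumours 1 to 4 and ran from 8.71 to 10.62 (median 10.15) in the day 3 tumours. It differed by 2.56 ± 0.56 (SE, adjusted p = 0.00143) and was still called under the spike-in block, at 4.98 (adjusted p = 0.0247). Cxcl13, which attracts B cells, differed by 3.42 ± 0.79 (SE, adjusted p = 0.00241), Cxcl12, a stromal chemokine, by 1.86 ± 0.39 (SE, adjusted p = 0.00112), and Cxcl16 by 1.43 ± 0.27 (SE, adjusted p = 0.000449), all 3 without overlap. The neutrophil chemokine Cxcl1 and the monocyte chemokine Ccl2 were not called, at -0.20 and -0.10.

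Of 13 tested immune checkpoint genes 5 rose and 0 fell. Cd276, which is also known as a checkpoint ligand and fell as given above, is not on that list. Checkpoint genes that rose numbered 3 without day 0 tumour 3. Cd274, which encodes PD-L1, stood at 7.43, 7.97, 6.07 and 7.63 in day 0 tumours 1 to 4 and ran from 7.86 to 9.16 (median 8.65) in the day 3 tumours. It overlapped and differed by 1.28 ± 0.37 (SE, adjusted p = 0.013). The call of Cd274 was lost without day 0 tumour 3 (adjusted p = 0.0961). Lgals9, galectin 9, and Havcr2, its receptor TIM-3, had no overlap and differed by 1.39 ± 0.29 (SE, adjusted p = 0.000925) and 1.01 ± 0.27 (SE, adjusted p = 0.00723). Pdcd1, the receptor PD-1, was not called, at 0.80.

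Macrophage and monocyte markers rose in 12 of 19 tested cases with 0 falling, 9 of them without overlap, and had a median of 1.28. Macrophage and monocyte markers that rose numbered 8 without day 0 tumour 4. Cybb, the catalytic subunit of the phagocyte oxidase, stood at 8.22, 8.82, 6.47 and 7.95 in day 0 tumours 1 to 4 and ran from 10.44 to 11.70 (median 11.05) in the day 3 tumours. Its difference of 3.19 ± 0.44 (SE, adjusted p = 1.36e-05), or 9.16-fold, was the largest of the list. Lyz2, lysozyme of myeloid cells, stood at 11.36, 11.92, 11.03 and 9.96 in day 0 tumours 1 to 4 and ran from 12.77 to 13.30 (median 13.14) in the day 3 tumours. It differed by 2.00 ± 0.28 (SE, adjusted p = 1.42e-05), Cd68 by 1.87 ± 0.32 (SE, adjusted p = 0.000131) and Ly86, a partner of the Toll-like receptor relative CD180, by 2.42 ± 0.35 (SE, adjusted p = 1.79e-05). Ly86 kept its call under the spike-in block, at 2.91 (adjusted p = 0.046). The scavenger and mannose receptors Cd163, Msr1 and Mrc1 were not called, at -0.15, -0.11 and 0.36. The mean level of the markers was 8.03 to 8.93 at day 0 and 9.37 to 10.0 at day 3.

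Complement genes rose in 8 of 13 cases, all 8 without overlap, and 1 fell, with a median of 1.81. Complement genes that fell numbered 0 without day 0 tumour 1 or day 0 tumour 4. C1qb, a chain of the C1q recognition molecule made by macrophages, stood at 10.30, 11.05, 9.87 and 8.60 in day 0 tumours 1 to 4 and ran from 12.08 to 12.49 (median 12.25) in the day 3 tumours. It differed by 2.32 ± 0.35 (SE, adjusted p = 3.02e-05). Cfb, complement factor B, stood at 6.47, 8.07, 6.71 and 6.43 in day 0 tumours 1 to 4 and ran from 8.54 to 9.88 (median 9.26) in the day 3 tumours. All day 3 tumours were higher, by 2.35 ± 0.32 (SE, adjusted p = 1.19e-05), or 5.1-fold. The protease gene C1s1 differed by 2.27 ± 0.38 (SE, adjusted p = 0.000114) and the anaphylatoxin receptor gene C3ar1 by 2.00 ± 0.31 (SE, adjusted p = 5.05e-05). Of 9 tested Fc receptor genes 8 rose and 0 fell, with a median of 1.27. Fc receptor genes that rose numbered 6 without day 0 tumour 4. Fcgr4, an activating IgG receptor, differed by 2.02 ± 0.46 (SE, adjusted p = 0.00205) and Fcer1g, the shared signalling chain, by 1.26 ± 0.28 (SE, adjusted p = 0.00143).

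Apolipoprotein E, a lipid carrier, was also among the 6 rising genes of lowest p-value. Apoe stood at 10.27, 11.57, 11.48 and 9.26 in day 0 tumours 1 to 4 and ran from 13.24 to 13.82 (median 13.58) in the day 3 tumours. The groups were separated by more than a log2 unit, and the difference was 2.90 ± 0.36 (SE, adjusted p = 2.69e-06), or 7.48-fold. Of 12 tested Apoe and LXR target genes 4 rose and 0 fell, with a median of 0.66. Apoc1, which lies beside Apoe in the genome, differed by 1.77 ± 0.47 (SE, adjusted p = 0.00782), the cholesterol exporter Abca1 by 0.82 ± 0.20 (SE, adjusted p = 0.00303) and Mylip, which degrades the LDL receptor, by 0.99 ± 0.20 (SE, adjusted p = 0.000983). Abca1 and Mylip were 0.24 (adjusted p = 0.842) and 0.47 (adjusted p = 0.692) under the spike-in block. Abcg1 and Nr1h3, the latter being LXR alpha itself, were not called, at 0.34 and 0.11. Of 17 lysosome genes 3 cathepsins rose (17.6%, against 9.74% of all genes) and 0 genes fell. Ctss, the cathepsin of antigen-presenting cells, stood at 12.54, 12.51, 11.64 and 11.67 in day 0 tumours 1 to 4 and ran from 13.18 to 13.53 (median 13.38) in the day 3 tumours and differed by 1.27 ± 0.18 (SE, adjusted p = 1.99e-05). The ubiquitous cathepsins Ctsb, Ctsd and Ctsl were not called, at -0.05, 0.29 and -0.20. Macrophages express Apoe, C1qb and Ctss, and their markers moved with these genes, as given above; their part in the rises was not tested.

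**Figure D4:**
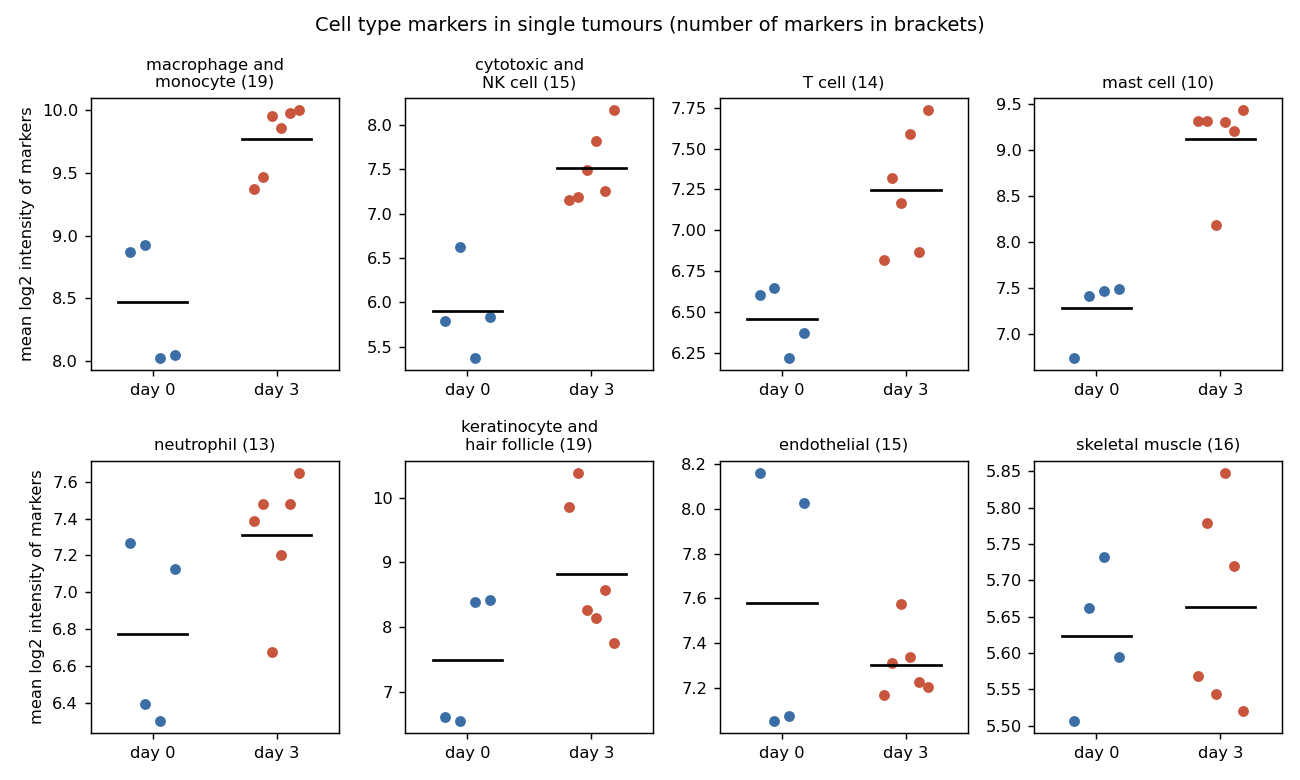
Mean log2 intensity (vertical axis) of the tested markers of 8 cell types in each day 0 and day 3 tumour, with the group mean as a bar. Cytotoxic and NK cell, mast cell, macrophage and T cell markers are higher in all 6 day 3 tumours, and keratinocyte, endothelial, neutrophil and skeletal muscle markers overlap between the groups.

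Cytotoxic and NK cell markers rose in 12 of 15 tested cases with 0 falling, 11 without overlap, and had a median of 1.49. Klrk1, the activating receptor NKG2D, stood at 6.37, 7.70, 5.50 and 6.03 in day 0 tumours 1 to 4 and ran from 8.28 to 10.08 (median 9.13) in the day 3 tumours. The groups did not overlap, and the 6.72-fold difference was 2.75 ± 0.51 (SE, adjusted p = 0.000297). Klrd1, CD94, stood at 6.81, 6.93, 4.73 and 5.62 in day 0 tumours 1 to 4 and ran from 8.19 to 9.92 (median 8.56) in the day 3 tumours and differed by 2.74 ± 0.55 (SE, adjusted p = 0.00071). Its partner Klrc1 differed by 2.24 ± 0.45 (SE, adjusted p = 0.000701), and Ncr1, the NK cell receptor NKp46, by 1.73 ± 0.37 (SE, adjusted p = 0.00129). Ms4a4b, a membrane protein of T and NK cells on no list, differed by 3.18 ± 0.57 (SE, adjusted p = 0.000236) and was called under the spike-in block, at 5.91 (adjusted p = 0.0226). The mean level of the 15 markers was 5.79, 6.62, 5.38 and 5.84 at day 0 and 7.16 to 8.16 at day 3.

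T cell markers rose in 7 of 14 cases with 0 falling and a median of 0.82. T cell markers that rose numbered 3 without day 0 tumour 4. Cd8a, of cytotoxic T cells, stood at 5.05, 5.87, 4.97 and 5.04 in day 0 tumours 1 to 4 and ran from 5.95 to 7.61 (median 7.04) in the day 3 tumours. These ranges did not overlap, and the difference was 1.62 ± 0.48 (SE, adjusted p = 0.0154), but other probe sets of the gene differed: with a pseudocount of 1 another one became the brightest, and the value was -0.14. The call of Cd8a was lost without day 0 tumour 4 (adjusted p = 0.0526). It was also lost when the probe sets were averaged, at 0.58 (adjusted p = 0.0562). Cd8b1, its partner chain, differed by 1.59 ± 0.44 (SE, adjusted p = 0.0103) and Cd2 by 1.40 ± 0.38 (SE, adjusted p = 0.0085). Cd4 differed by 0.49 ± 0.17 (SE, adjusted p = 0.0404). The call of Cd4 was lost in 7 of the 10 fits that leave out a tumour (highest adjusted p = 0.104). Foxp3, of regulatory T cells, stood at 5.78, 5.73, 5.63 and 5.60 at day 0 and 5.57 to 6.31 (median 5.69) at day 3 and was not called, at 0.09 ± 0.18 (SE, adjusted p = 0.778). The pan T cell gene Cd3e was not called either, at 0.01.

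Mast cell markers rose in 8 of 10 cases with 0 falling, all 8 without overlap, and had a median of 2.00. Cpa3, mast cell carboxypeptidase, stood at 6.53, 8.51, 8.92 and 8.07 in day 0 tumours 1 to 4 and ran from 10.12 to 10.89 (median 10.65) in the day 3 tumours. It differed by 2.60 ± 0.62 (SE, adjusted p = 0.00343). Mcpt4, a chymase, stood at 6.30, 7.35, 7.52 and 7.40 in day 0 tumours 1 to 4 and ran from 8.42 to 9.93 (median 9.60) in the day 3 tumours. It differed by 2.31 ± 0.56 (SE, adjusted p = 0.00356), the tryptase gene Tpsb2 by 1.76 ± 0.40 (SE, adjusted p = 0.00237) and Fcer1a, the IgE receptor chain, by 2.59 ± 0.56 (SE, adjusted p = 0.00138). Mcpt4 was 0.94 (adjusted p = 0.767) under the spike-in block. The mean level of the 10 markers was 6.75, 7.42, 7.47 and 7.49 at day 0 and 8.18 to 9.43 at day 3. The shared receptor gene Kit was not called, at 0.95. Averaged over its probe sets it was called, at 0.81 (adjusted p = 0.0344).

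Other cell types moved little or unevenly. Of 8 tested B and plasma cell markers 2 rose (25%, against 9.74% of all genes). Cd79b, of the B cell receptor, differed by 1.13 ± 0.24 (SE, adjusted p = 0.00125), while Cd79a, Ms4a1 and Pax5 were not called, at -0.13, 0.02 and -0.08. These B and plasma cell rises numbered 1 without day 0 tumour 4. Of 11 dendritic cell markers 2 rose (18.2%, against 9.74% of all genes), and Batf3, a factor of cross-presenting dendritic cells, differed by 0.73 ± 0.22 (SE, adjusted p = 0.0159). The call of Batf3 was lost without day 0 tumour 3 (adjusted p = 0.0553). Dendritic cell rises numbered 0 without day 0 tumour 3, and 1 without day 0 tumour 4. Of 13 neutrophil markers 1 rose (7.69%, against 9.74% of all genes), S100a9, at 2.56 ± 0.90 (SE, adjusted p = 0.0393). The call of S100a9 was lost in 6 of the 10 fits that leave out a tumour (highest adjusted p = 0.163). Its sign turned under the spike-in block, to -0.44. None of 16 skeletal muscle or 7 adipocyte markers was called, and their medians were 0.01 and 0.11. Of 15 endothelial markers 1 rose and 2 fell (20%, against 21.3% of all genes), and their median of -0.26 was 0.12 (0.19 with the other boundary) under the block. Endothelial falls numbered 0 without day 0 tumour 1 or day 0 tumour 4, and 1 without day 3 tumour 1, day 3 tumour 2 or day 3 tumour 6. Kdr, the VEGF receptor of vessels, stood at 9.18, 8.12, 7.92 and 9.17 in day 0 tumours 1 to 4 and ran from 7.31 to 8.45 (median 7.49) in the day 3 tumours and differed by -0.95 ± 0.31 (SE, adjusted p = 0.0291). The call of Kdr was lost in 5 of the 10 fits that leave out a tumour (highest adjusted p = 0.146). Cdh5, the endothelial cadherin, differed by -1.21 ± 0.37 (SE, adjusted p = 0.0196), with day 0 tumours 1 and 4 high at 8.71 and 8.10 and tumours 2 and 3 at 6.57 and 6.46. The call of Cdh5 was lost in 2 of the 10 fits that leave out a tumour (highest adjusted p = 0.152). Of 12 fibroblast markers 2 rose (16.7%, against 9.74% of all genes). Fibroblast rises numbered 0 to 2 when a tumour was left out and 0 without day 0 tumour 4. The fibroblast median of 0.36 was -0.04 (0.04 with the other boundary) under the spike-in block. Of 9 pericyte and smooth muscle markers 2 fell (22.2%, against 11.6% of all genes), and 1 in 7 of the 10 fits that leave out a tumour. Cspg4, the proteoglycan NG2 of pericytes and of melanoma cells, stood at 9.06, 9.20, 9.95 and 9.52 in day 0 tumours 1 to 4 and ran from 7.37 to 8.37 (median 7.84) in the day 3 tumours. It was lower in all day 3 tumours, at -1.58 ± 0.31 (SE, adjusted p = 0.000503).

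Matrix and morphogen genes showed scattered falls. Of 20 tested collagen and matrix genes 1 fell (5%, against 11.6% of all genes) and 0 rose. The fall was in Lamc1, a laminin chain, at -0.73 ± 0.16 (SE, adjusted p = 0.0014). Falls on this list numbered 2 without day 0 tumour 2 or day 3 tumour 4, and 4 without day 3 tumour 3. Of 17 matrix metalloproteinases, plasminogen activators and inhibitors 3 fell (17.6%, against 11.6% of all genes) and 0 rose. These falls numbered 1 without day 0 tumour 1. Plau, urokinase, stood at 6.17, 6.15, 6.07 and 5.74 in day 0 tumours 1 to 4 and ran from 5.17 to 5.49 (median 5.34) in the day 3 tumours and differed by -0.70 ± 0.11 (SE, adjusted p = 7.18e-05). Its values lay near the filter on low values in both groups. Timp1, an inhibitor of metalloproteinases, differed by -1.19 ± 0.36 (SE, adjusted p = 0.0159). Plau and Timp1 were -0.22 (adjusted p = 0.715) and -0.15 (adjusted p = 0.953) under the spike-in block. The call of Timp1 was lost in 2 of the 10 fits that leave out a tumour (highest adjusted p = 0.0562). Of 14 BMP, Id and TGF-beta genes 6 fell and 1 rose (2 without day 0 tumour 1). Bmp2 stood at 11.36, 10.39, 10.24 and 10.28 in day 0 tumours 1 to 4 and ran from 7.62 to 9.69 (median 8.78) in the day 3 tumours, and differed by -1.85 ± 0.46 (SE, adjusted p = 0.00453). Smad7, a feedback inhibitor of TGF-beta signalling, differed by -0.84 ± 0.14 (SE, adjusted p = 0.000129). Id2, a dominant-negative helix-loop-helix factor, stood at 8.50, 9.37, 8.64 and 8.05 in day 0 tumours 1 to 4 and ran from 9.74 to 10.72 (median 10.04) in the day 3 tumours. It rose by 1.48 ± 0.26 (SE, adjusted p = 0.00021), while Id1 and Id3 were not called, at -0.74 and -0.22. Of 10 YAP and TAZ pathway genes 4 fell and 1 rose. Yap1 itself differed by -0.53 ± 0.13 (SE, adjusted p = 0.00406) and its partner Tead1 by -0.86 ± 0.21 (SE, adjusted p = 0.00404), and Wwtr1, which encodes TAZ, was not called, at -0.12. Averaging each gene's probe sets turned this round: Wwtr1 was called at -0.93 (adjusted p = 0.0042) and Yap1 was not, at -0.30 (adjusted p = 0.0828).

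Comparisons of day 3 with the neighbouring time points involve no day 0 tumour, and all 15 tumours of days 2, 3 and 6 lie in the same spike-in set. Between day 3 (n = 6) and day 2 (n = 5) limma called 0 of 14319 genes, with 617 at an unadjusted p under 0.05 (4.31%), and robust limma with a trend also called 0. Between day 6 (n = 4) and day 3 it called 0, with 205 at an unadjusted p under 0.05 (1.43%), and the robust fit also called 0. A p-value that misses the threshold does not show that these days were alike. Day means are given next to each other for genes described above; differences of days 1, 2, 3 and 6 from day 0 share the same 4 day 0 tumours.

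Over days 0, 1, 2, 3 and 6, in that order, Spred3 had means of 8.04, 6.91, 6.43, 6.12 and 6.07. For Dusp6 the means of the same days were 11.08, 10.36, 10.59, 10.25 and 9.93. For both the day 1 mean lay below that of day 0 and above that of day 3. Day 0 and 6 of the 7 day 1 arrays lie in different spike-in sets from each other and from day 3, so that in these orders day and set cannot be told apart. Apoe had means of 10.64, 13.34, 13.28, 13.55 and 13.71. Mal had means of 5.74, 8.57, 8.04, 9.23 and 8.21. Most of the rise in both means was present at day 1. The means of Mx1 were 6.80, 8.01, 8.22, 9.30 and 9.03. Klrk1 had means of 6.40, 8.48, 8.91, 9.15 and 8.89. For Cpa3 they were 8.01, 10.21, 10.41, 10.60 and 11.15. In these 3 genes, too, the day 1 mean lay between the means of day 0 and day 3.

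**Figure D5:**
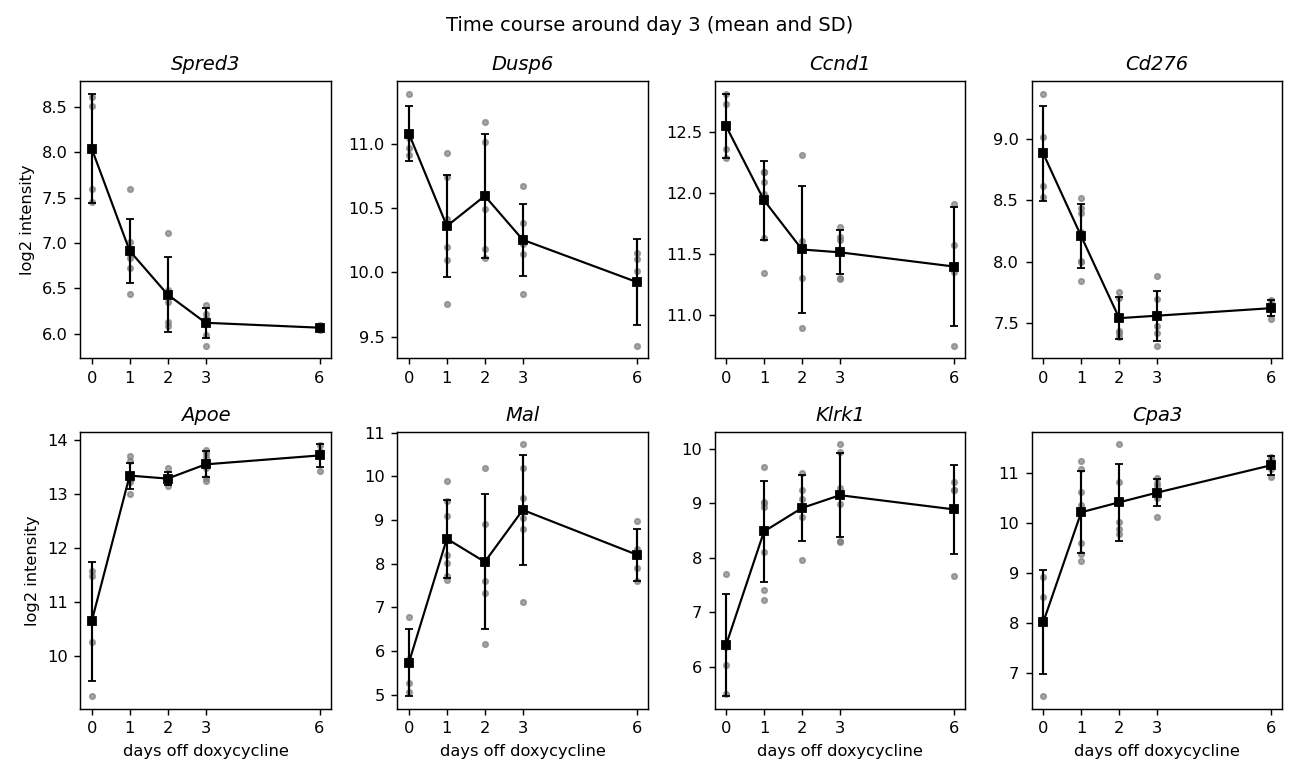
Mean log2 intensity (vertical axis) of 8 genes at days 0, 1, 2, 3 and 6 off doxycycline (horizontal axis, days), with the standard deviation over 4, 7, 5, 6 and 4 tumours as lines and single tumours as points. At day 1 the mean of each gene lies between its day 0 and day 3 means, for example 13.34 for Apoe against 10.64 and 13.55.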

How the data were processed

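Biotin-labelled cRNA of 41 tumours was hybridised to Affymetrix mouse genome arrays, per the labels' protocols. The authors' deposited table holds 1 linear intensity per probe set and array. The submitters' processing notes name RMA and MAS5, with no version and without saying which made the table. The intensities involve no aligner or genome build, promoter windows are RefSeq's on GRCm38.p6, arrays have no sequencing depth, and their number limits the precision.

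The unit used is log2(intensity + 16), quantile normalised between arrays here, so differences of dim genes are understated. Of 45101 probe sets, 34958 named 1 gene, 932 several and 9211 none, and the first kind was used with the submitters' platform names (34754 had a RefSeq entry, 0 symbols were updated). The probe set of highest mean stood for each of 18194 genes, and 14319 lay above the 40th percentile of their array in at least 3 arrays. limma 3.58.1 in R 4.3.3 fitted a mean for each of 9 day groups over all 41 arrays (32 residual degrees of freedom, prior 2.58), with Benjamini-Hochberg adjustment over all genes tested. Adjusted p-values are limma's. Of 8207 tested genes with several probe sets, all probe sets had the same sign in 4343.

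The members and gene lists were chosen with earlier results of these data known. Genes were picked by rule. The rule took the 12 largest rises and falls and the 6 lowest p-values each way. It also took up to 4 called members of a list with the lowest p (or the 2 brightest where none was called). A fixed set of pathway, lineage and immune genes was added. The text names only part of the genes so picked, and leaves out Bmp7 and Ctsh, for example. Members given as not called, and Asns, Cdkn1a, Dusp7, Ereg, Ifit3, Il11, Itga3, Itga4, Itga5, Itgal, Itgam, Itgb2, Itgb3, Mars1, Slfn1, Spred1, Spred2, Tlr13, Tlr2, Tlr8, Tpm2, Tpm4 and Yars, were named after their values had been seen. Alternatives were other pseudocounts, normalisations, filters, probe set rules, limma settings, covariates, a block and each tumour left out. The boundaries of the spike-in sets for the block were taken from an earlier account of these data and lie in gaps of the bioD and dap signals. The fit was tested on simulated data. Figures used matplotlib 3.10.9 in Python 3.11.15.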

Additional observations from a re-analysis of the deposited data

Results flagged for a closer look

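Dixon's test at the 95% level was applied within each group to the 198 genes named with values and to 7 list means, 410 sets of 4 or 6 tumours in all. In 24 of them 1 tumour lay further from the others than that limit, and chance alone gives about 1 in 20. Day 0 tumour 1 stood apart in Bmp2 at 11.36 (others 10.24 to 10.39), Mcpt4 at 6.30 (others 7.35 to 7.52), Tpm2 at 10.58 (others 11.18 to 11.29) and the mean level of mast cell markers at 6.75 (others 7.42 to 7.49). Day 0 tumour 2 stood apart in Cxcl12 at 9.06 (others 8.40 to 8.48), Cd8a at 5.87 (others 4.97 to 5.05), Calhm6 at 7.07 (others 4.98 to 5.19) and the mean level of type I interferon antiviral genes at 9.61 (others 7.36 to 7.72). Day 0 tumour 3 stood apart in Nop2 at 8.20 (others 8.52 to 8.57), Tifa at 7.75 (others 8.24 to 8.29), Krt10 at 10.89 (others 6.57 to 6.89) and Cxcl1 at 8.81 (others 9.83 to 9.98). Day 0 tumour 4 stood apart in Ccne1 at 8.14 (others 7.89 to 7.91), Cd163 at 6.40 (others 9.15 to 9.52) and Eif2s3y at 8.88 (others 4.59 to 4.83). Day 3 tumour 1 stood apart in Cxcl9 at 8.76 (others 10.49 to 11.47). Day 3 tumour 2 stood apart in Cxcl13 at 12.29 (others 9.16 to 9.95). Day 3 tumour 3 stood apart in Nefm at 6.57 (others 7.20 to 7.49), Mcpt4 at 8.42 (others 9.50 to 9.93), Mrc1 at 10.05 (others 10.94 to 11.15), Wwtr1 at 10.39 (others 10.57 to 10.68) and the mean level of mast cell markers at 8.18 (others 9.20 to 9.43). Day 3 tumour 5 stood apart in Il11 at 8.61 (others 6.58 to 7.23). Day 3 tumour 6 stood apart in Foxp3 at 6.31 (others 5.57 to 5.71).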

How the results depend on the processing

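With each tumour of either group left out in turn, genes called higher numbered 782 to 1451 and genes called lower 851 to 1682, the fewest being without day 0 tumour 4. Requiring a log2 difference of at least 1 left 429 higher and 214 lower, and the spike-in set as a block left 85 higher and 49 lower, of which 69 were shared with the 3057 and 65 had the same direction. With the other boundary between the sets, added after the data had been seen, the block left 164 higher and 51 lower. Both blocks rest on few arrays, since only tumours of day 1 and the late days link the sets. The set of the day 3 arrays is tied to the others by 1 array alone, day 1 tumour 4. Neither block was refitted without that tumour. Array weights gave 1816 higher and 2453 lower. Higher genes were 45.6% of calls, 54.3% with arrays centred on their medians and 54.2% without normalisation. Day 3 against day 2 and day 6 against day 3 gave 0 genes under every setting run. Under the block these genes turned sign: Map2k2 (0.22), Braf (-0.11), Fen1 (0.20), Hk1 (0.048), Nop2 (0.19), Bak1 (0.50), S100a9 (-0.44), Krt10 (-2.07), Pdgfrb (0.22) and Pdia3 (-1.18). With the other boundary this held for Map2k2 (0.13), Braf (-0.067), Bak1 (0.55) and Krt10 (-1.56). Cd8a turned to -0.14 with the setting: pseudocount of 1. The cause of these changes was not tested. Plk1 and S100a9 lost the call with the setting: Xist as a covariate. Ier3, Prl8a9, Cdh5 and Itga4 lost the call with the setting: array weights. Plk1, Bak1, Ifng and Pdgfrb lost the call with the setting: arrays centred on their medians. Braf, Fen1, Bak1, Xaf1, Cd8a and Yap1 lost the call with the setting: average of a gene's probe sets. Plk1, Mitf and Ifng lost the call with the setting: no filter on low values. Plk1 and Bak1 lost the call with the setting: no further normalisation. Plk1 lost the call with the setting: pseudocount of 1. Mitf, Ifng and Itga4 lost the call with the setting: the larger pseudocount. Ier3, Cd4, S100a9, Cdh5 and Itga4 lost the call with the setting: the compared groups alone. Plau, Foxp3, Cd79a, Chac1, Mag, Ms4a1 and Pax5 could not be tested with the setting: filter at the 60th percentile. Ms4a1 and Pax5 could not be tested with the setting: mean of a gene's probe sets. No paired analysis was run, since the labels do not say which tumours, if any, share a mouse. Signal over background limits genes such as Ifng, Foxp3, Tyrp1 and Plau, which lie near the filter.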

Other observations

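Gene families beyond the lists above were picked after their values had been seen, with every tested member counted, so their counts describe these tumours and carry no test of the family; over all genes 9.74% rose and 11.6% fell. Of 19 tested cytosolic aminoacyl-tRNA synthetase genes, which charge tRNAs with amino acids, 12 fell, 0 rose and all 19 differences were below 0 (-0.95 to -0.05, median -0.53). Yars stood at 8.99, 8.89, 9.09 and 9.35 in day 0 tumours 1 to 4 and ran from 8.30 to 8.65 (median 8.51) in the day 3 tumours. It fell by 0.58 ± 0.11 (SE, limma adjusted p = 0.000613), and Mars1 by 0.64 ± 0.11 (SE, adjusted p = 0.00017). Of 4 tested tropomyosin genes, which encode actin-filament proteins, 2 fell, Tpm2 by 1.01 ± 0.26 and Tpm4 by 0.73 ± 0.13.

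Integrin subunits, the receptors that hold cells to matrix and to other cells, had 4 rises and 4 falls among 24 tested, 16.7% each way. Itga3, a laminin receptor chain, stood at 9.32, 8.39, 8.48 and 9.44 in day 0 tumours 1 to 4 and ran from 6.76 to 7.58 (median 7.29) in the day 3 tumours. Itgb3, the beta 3 chain of vitronectin receptors, stood at 9.37, 8.31, 8.82 and 9.44 in day 0 tumours 1 to 4 and ran from 6.75 to 7.71 (median 7.35) in the day 3 tumours. Both were lower in every day 3 tumour, by 1.65 ± 0.25 (adjusted p = 3.97e-05) and 1.72 ± 0.30 (adjusted p = 0.000183), and the fibronectin receptor chain Itga5 fell by 1.52 ± 0.22. Itga3, Itgb3 and Itga5 were -0.70, -0.67 and -0.69 under the spike-in block and were not called there. The 4 that rose were the leukocyte chains Itgb2, Itgal, Itgam and Itga4, at 1.69 ± 0.37, 1.49 ± 0.45, 1.28 ± 0.43 and 0.68 ± 0.24. The call of Itgal was lost without day 0 tumour 3 (adjusted p = 0.118). The call of Itgam was lost in 4 of the 10 fits that leave out a tumour (highest adjusted p = 0.112). The call of Itga4 was lost in 6 of the 10 fits that leave out a tumour (highest adjusted p = 0.213). Of 11 tested Toll-like receptor genes 5 rose, 0 fell and the median was 0.82, with Tlr13 at 1.40 ± 0.29, Tlr2 at 1.21 ± 0.20 and Tlr8 at 1.00 ± 0.14. Of 6 tested Schlafen genes 4 rose and 0 fell. Slfn1, expressed in lymphocytes and macrophages, stood at 6.62, 8.35, 5.50 and 5.66 in day 0 tumours 1 to 4 and ran from 8.38 to 9.85 (median 9.00) in the day 3 tumours and differed by 2.51 ± 0.47 (SE, adjusted p = 0.00039). Macrophage and lymphocyte markers moved with these rises, and their part was not tested.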
